A study of Mus musculus with 10 samples.

Results

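Alendronate is a nitrogen-containing bisphosphonate, a drug that binds bone mineral and stops osteoclasts from resorbing bone. Single-cell transcriptomes of bone endothelial cells (bone ECs) from 12-week-old mice given alendronate were compared here with those of untreated 12-week-old mice. A barcode was counted as a bone EC when it held 500 to 6000 detected genes, had under 25% of its UMIs (unique molecular identifiers, 1 per captured RNA molecule) from mitochondrial genes, had at least 2 UMIs of Cdh5, Pecam1, Egfl7 and Kdr together and had 0 of Ptprc, the pan-leukocyte gene. This left 22369 bone ECs of 24049 barcodes in the 4 libraries, against 44640 bone ECs of 47466 barcodes in all 10 libraries of the series. UMIs were summed within each library over all bone ECs and over 5 classes set by UMI gates. Sinusoidal cells had at least 3 UMIs of Stab2, a scavenger receptor of sinusoids. Arterial cells (aECs) had at least 4 UMIs of Gja4, Gja5, Fbln5 and Stmn2 together and at most 1 of Stab2. The rest were called other cells. Among these, the type R gate took cells with at least 3 UMIs of C1qtnf9, Aqp7, Timp4 and Car4, and the metaphyseal gate took cells outside the type R gate with at least 3 UMIs of Ramp3, Piezo2, Lamb1 and Apln.

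All 4 libraries came from the femur and tibia of female C57BL/6 mice carrying the Cdh5-mTnG reporter, which marks cells in which the Cdh5 (VE-cadherin) promoter has been active. Cells were lineage-depleted, sorted as GFP+ tdTomato+ and sequenced as 10x 3' libraries on a NextSeq 500. The alendronate group held 2 libraries from mice that had received the drug by repeated injection, and the adult group held 2 libraries from mice for which no treatment is given. The study describes 1 pool of animals a group, and nothing says that the 2 libraries of a group came from separate animals, so the p-values below measure the spread between libraries, which may be technical. The time of day of collection and the preparation day are not given for either group and cannot be told apart from the treatment.

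Blood reaches the marrow through arteries and arterioles, passes into capillaries at the metaphysis and along the bone surface, and drains through a wide sinusoidal network. Type H or metaphyseal capillaries (mpECs) lie next to the growth plate and are known for their link to osteoprogenitors. Type R capillaries are post-arterial vessels that the study named for remodelling bone. Alendronate inhibits farnesyl diphosphate synthase, the Fdps product, which makes the isoprenoids that anchor small GTPases to membranes. Cells respond to a shortage of sterols by raising genes that the SREBP transcription factors control.

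The libraries held 19937668 to 23326655 UMIs, and bone ECs had a median of 3106 to 3305.5 UMIs. Any pair of libraries shared 45 to 61 barcodes. Replicate libraries differed by more than sampling noise, with a chi-square per degree of freedom of 4.36 for the adult pair and 4.97 for the alendronate pair against 23.4 and 23.9 for the pairs across groups. Emcn, an endothelial sialomucin that no gate used, stood at 914 and 903 CPM (counts per 1000000 UMIs, scaled by edgeR's TMM factors) in adult bone ECs against 947 and 890 in alendronate bone ECs. The 7 osteoclast markers summed to 4.48 to 6.49 CPM in all bone ECs (marker sums are without TMM scaling), and 2 or 3 of them were at 0 in each library.

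Transcripts of blood cells were not even between libraries. The 8 erythroid markers summed to 2295 and 2238 CPM in the adult bone ECs and to 578 and 850 in the alendronate bone ECs. In other cells the sums were 5946 and 5013 against 1069 and 955 CPM, and 7 of the 8 markers passed the test as lower. Alas2 was high enough to be tested there in the adult libraries alone, which leaves 6. Without adult library 1 the count was 6, and without adult library 2 it was 4. Of all 12899 genes tested in other cells, 2.74% were called lower. In the type R gate 1 library decided the difference, since the adult libraries held 18126 and 209 CPM and the alendronate libraries 148 and 73.7 CPM. In aECs the order was the other way round, at 184 and 234 CPM against 282 and 1662, the last in alendronate library 2. The 17 haematopoietic markers summed to 952 and 1164 CPM in the adult bone ECs and to 1119 and 1199 CPM in the alendronate bone ECs. In other cells their sums were higher, at 1578 and 1891 against 2217 and 2427 CPM. They were lower in sinusoidal cells (660 and 813 against 555 and 581 CPM), in aECs and in the metaphyseal gate. In aECs 5 of 7 mural markers were called lower, among them Rgs5 (97.7 and 317 against 24.8 and 36.7 CPM). DESeq2 called 2 of the 7. The 8 mural markers summed there to 346 and 706 against 348 and 268 CPM, so that adult library 2 alone stood high. Over all 10833 genes tested in aECs, 1.79% were called lower. The part of these transcripts in the results below was not tested, other than by leaving out every cell with a UMI of 25 defining markers (7 haematopoietic, 5 erythroid, 4 mural, 5 mesenchymal and 4 myofibre genes), which left 2566 to 3441 marker-filtered cells a library. Other genes of these lists, such as Dcn, Mpo and Tagln, were not in the filter and still had UMIs there, as did megakaryocyte markers.

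The alendronate bone ECs held a larger share of arterial and type R gate cells and a smaller share of sinusoidal and metaphyseal gate cells than the adult bone ECs. Type R gate cells made up 3.78% (exact 95% interval 3.29 to 4.31) and 3.79% (3.30 to 4.34) of the adult bone ECs and 9.71% (8.96 to 10.5) and 9.76% (8.998 to 10.6) of the alendronate bone ECs, a ratio of 2.57. Replicates lay far closer to each other than to the other group. Arterial cells made up 11.7% and 10.6% of the adult and 19.8% and 20.1% of the alendronate bone ECs, a ratio of 1.79 between the means of 11.1% ± 0.761 and 19.95% ± 0.229 (SD, n = 2). Sinusoidal cells made up 47.3% and 46.6% against 37.6% and 37.0%, a ratio of 0.794. The metaphyseal gate held 7.93% and 6.84% of adult bone ECs against 5.58% and 5.19% of alendronate bone ECs. The intervals of these last shares, which cover counting error only, ran from 6.18 to 8.68% and from 4.62 to 6.21%, so that the highest alendronate bound and the lowest adult bound just overlapped. Other cells were at 41.0% and 42.8% against 42.6% and 42.9%, and here the groups overlapped. In a two-sided exact permutation test of the libraries, the 4 shares whose groups did not overlap had p = 0.333, the smallest value that 2 libraries against 2 can give, and the share of other cells had p = 0.667.

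**Figure D1:**
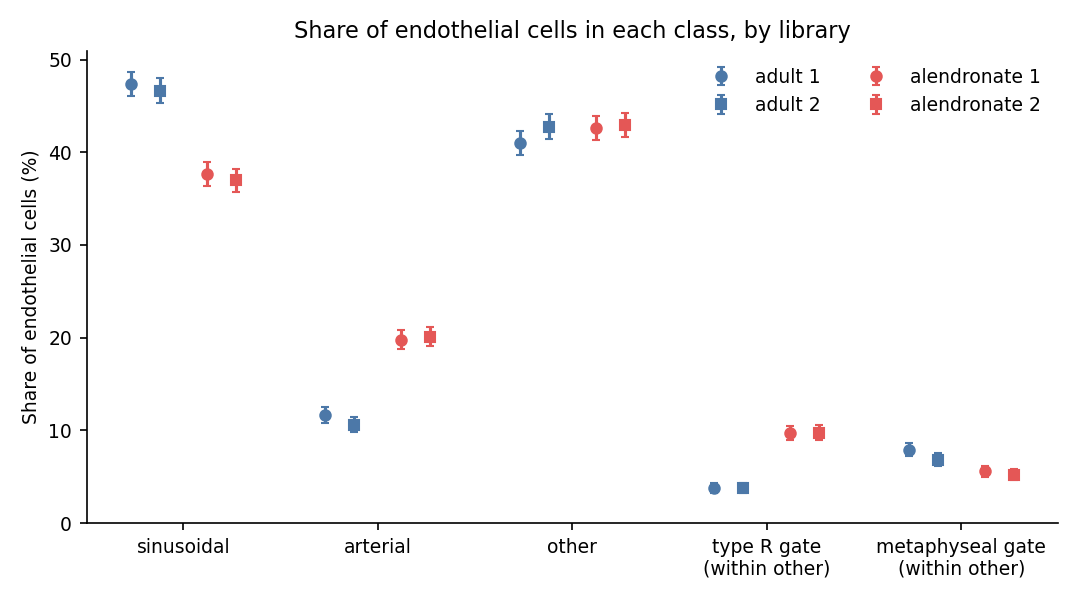
Share of bone ECs in each class (y axis, %) in the 2 adult libraries (blue) and the 2 alendronate libraries (red), with exact 95% binomial intervals for counting error. Arterial and type R gate shares were higher in both alendronate libraries and sinusoidal and metaphyseal gate shares lower, while the shares of other cells overlapped.

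Within other cells the shares of the 2 gates differed as well. Type R gate cells were 9.22% and 8.87% of adult other cells and 22.8% and 22.7% of alendronate other cells, while metaphyseal gate cells were 19.36% and 16.003% against 13.1% and 12.1%. As a background for the gate, sinusoidal cells, which other genes define, reached its 3 UMIs in 0.307% and 0.317% of adult and 0.691% and 0.856% of alendronate cells, at a median of 3659 to 4195 UMIs a cell against 2350.5 to 2487 in other cells. After each cell was thinned to 2000 UMIs, leaving out 1373 to 1552 shallower cells a library, the mean type R gate share was 1.93% in adult and 6.78% in alendronate bone ECs, a ratio of 3.51. Type R gate cells of adult library 1 had a median of 1854.5 UMIs, so most of them were left out by this step. Whether it left out gate cells alike in both groups was not tested, and the ratio covers the deeper cells only. Over the whole series the type R gate held 1.097% and 0.798% of juvenile bone ECs (3 weeks), 10.1% and 10.3% of aged bone ECs (75 weeks), and 2.66% and 4.68% of bone ECs from 12-week-old mice given parathyroid hormone (PTH). The aged libraries were deeper, with a median of 3482 and 3544 UMIs in their other cells, and in thinned cells the gate held 182 of 1914 and 175 of 1967 aged bone ECs beside 290 of 4280 and 282 of 4160 alendronate bone ECs. The PTH libraries were unlike in depth, with a median of 4018 and 2586 UMIs in their other cells. Thinning left out 1 shallower cell of PTH library 1 and 2019 of PTH library 2. The part of depth in the PTH shares was not tested.

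Genes that mark type R cells rose in the alendronate bone ECs as a whole. A gene was called when its adjusted p was under 0.05 and its log2 fold change at least 0.5 in either direction. Of the 15 genes of the type R identity list, 11 were called higher and 0 lower in all bone ECs, with a median log2 fold change of 1.28 against -0.01 over all 14637 genes tested, of which 4.52% were called higher and 3.81% lower. C1qtnf9, which encodes a secreted adiponectin paralogue (chr14:60768134-60780869, mm10), was at 50.8 and 51.0 CPM in adult against 137 and 135 CPM in alendronate bone ECs (log2 fold change 1.42 ± 0.04 SE, edgeR adjusted p = 3.15e-07). Aqp7, a glycerol channel (chr4:41033074-41048139), rose from 15.8 and 14.2 to 45.5 and 50.7 CPM. Both genes sit in the gate, so their levels and the share are not independent. Of the 11 genes outside the gate, 7 were called higher, and the list's count of 11 was the same in marker-filtered cells, in cells thinned to 2000 UMIs and without any 1 library. Vwf, von Willebrand factor, rose from 26.9 and 29.7 to 96.2 and 112 CPM (log2 fold change 1.88 ± 0.08 SE, adjusted p = 1.56e-06), and Meox2, a homeobox factor, rose from 12.0 and 12.2 to 36.0 and 36.8 CPM. Cav1, the main protein of caveolae, rose from 289 and 271 to 562 and 543 CPM, and Tagln, an actin-binding protein that mural cells also express, from 32.1 and 34.6 to 99.8 and 100 CPM. Fabp4 and Gpihbp1, which serve fatty acid uptake and lipoprotein lipase in many capillaries, were not called and stood lower (log2 fold changes -0.33 and -0.31).

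Within the type R gate itself the genes of the type R list differed little. Of the 15, 0 were called in edgeR's test and 0 by DESeq2, although 10 had an unadjusted p under 0.05, among them Vwf (log2 fold change 0.46) and Tagln (0.40), and the median log2 fold change was -0.06, where 0.779% of 8340 genes were called higher and 0.863% lower. With upper quartile factors in place of TMM, 57.7% of the gate's calls were higher ones against 47.4% with TMM. C1qtnf9 was at 1475 and 1454 CPM in the adult and 1343 and 1280 CPM in the alendronate gate cells, and Car4, a membrane carbonic anhydrase, at 392 and 375 against 290 and 270 CPM (log2 fold change -0.46). The gate selects on 4 of these genes, which limits how far they can differ inside it. Aplnr, which the study reports in type R and metaphyseal cells, is not on the list and fell in the gate, as given below. The gate took only cells that were neither sinusoidal nor arterial, so aECs could hold 3 or more UMIs of its genes. The number of such aECs was not counted. Type R genes also rose outside the gate. In sinusoidal cells 8 of 15 were called higher, where C1qtnf9 stood at 5.86 and 6.63 against 10.7 and 13.9 CPM, and in aECs 7 of 15 were, where it stood at 74.9 and 71.7 against 144 and 143 CPM. These levels were far below those in the gate. Of all 12778 genes tested in sinusoidal cells, 2.3% were called higher and 2.47% lower. In aECs the shares were 2.22% and 1.79% of 10833 genes. The count in sinusoidal cells was 3 after thinning, 4 in marker-filtered cells and 5 by DESeq2. Free RNA from type R cells in the droplets was not measured, and its part in the sinusoidal values was not tested. In marker-filtered sinusoidal cells the C1qtnf9 call was lost (log2 fold change 0.26), as were those of Aqp7 (0.61) and Fmo2 (0.67).

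Arterial genes rose in all bone ECs together with the arterial share. Of 19 genes of the arterial identity list 16 were called higher, with a median log2 fold change of 0.71, and the count was again 16 in those 6 settings. Gja4, Gja5, Fbln5 and Stmn2 are both on the list and in the arterial gate, so this count and the share are not independent. Gja5 (connexin 40) rose from 31.0 and 29.8 to 68.8 and 77.4 CPM, Hey1, a Notch target, from 26.3 and 25.7 to 59.1 and 54.6 CPM, and Gja4 (connexin 37) from 183 and 176 to 272 and 271 CPM. Within aECs only 4 of the 19 were called, all higher, where 2.22% of 10833 genes were called higher and 1.79% lower. Mgp, matrix Gla protein, an inhibitor of calcification (chr6:136872435-136875823), was at 907 and 1066 CPM in adult aECs and at 1542 and 1771 CPM in alendronate aECs (log2 fold change 0.75 ± 0.06 SE, edgeR adjusted p = 4.4e-08). Clu (clusterin) rose from 568 and 606 to 815 and 922 CPM and Eln (elastin) from 56.1 and 61.3 to 80.9 and 89.9 CPM. The fourth was Gja5, at 223 and 231 against 328 and 359 CPM, which the arterial gate itself uses. The groups did not overlap for any of these 4. The Clu log2 fold change dropped under the limit without alendronate library 2 (0.48), and that of Eln without adult library 1 (0.48) or alendronate library 2 (0.47). In aECs thinned to 2000 UMIs, and in marker-filtered aECs, only 1 of the 19 was called, Mgp (log2 fold changes 0.60 and 0.64). Gja4, another gene of the gate, was at 1242 and 1264 against 1228 and 1230 CPM. Mgp was also higher in sinusoidal cells (31.6 and 34.3 against 115 and 86.6 CPM) and in the metaphyseal gate (19.9 and 20.1 against 62.9 and 54.6 CPM).

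**Figure D2:**
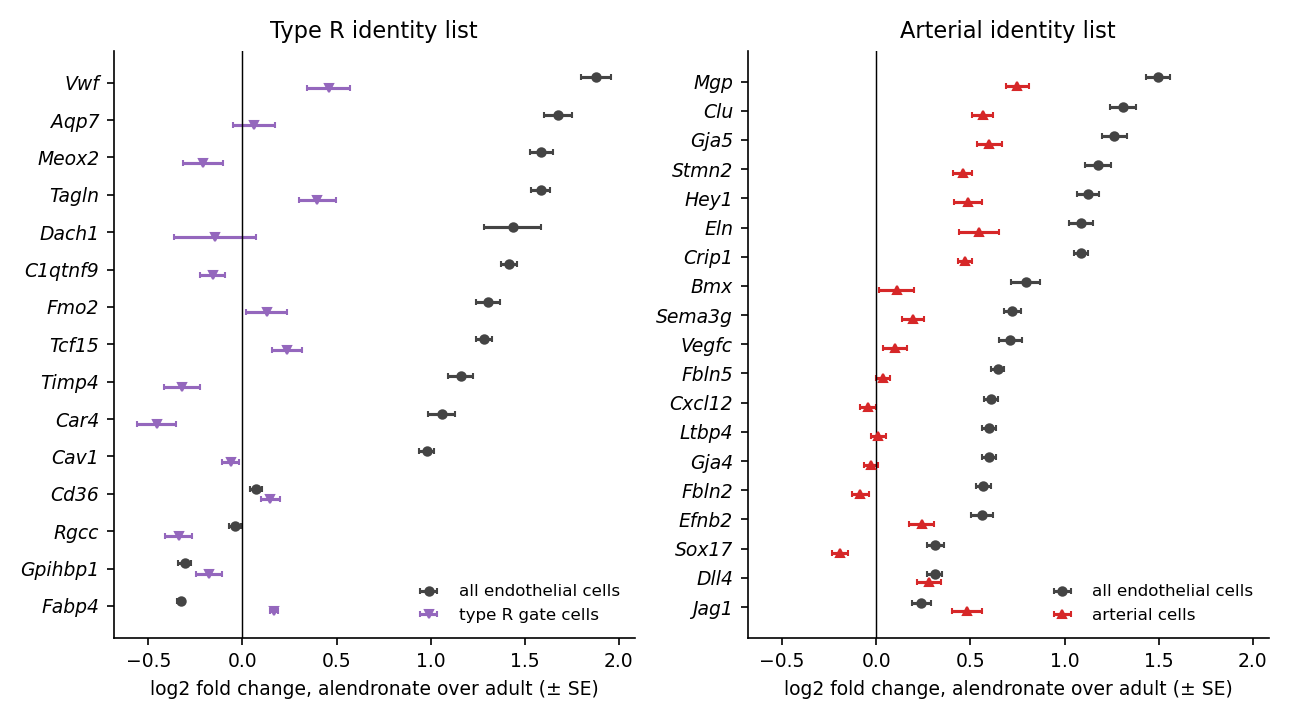
Log2 fold change of alendronate over adult with its standard error (x axis) for the genes of the type R list (left) and the arterial list (right), in all bone ECs (black circles) and inside the type R gate (purple) or in aECs (red). In all bone ECs 11 of 15 and 16 of 19 genes were called higher, against 0 and 4 inside the class.

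Fewer sinusoidal and metaphyseal identity genes were called in all bone ECs. An unadjusted p under 0.05 in edgeR was held there by 19 of 20 sinusoidal and 9 of 14 metaphyseal genes. Of all 14637 genes tested there, 4.52% were called higher and 3.81% lower. In all bone ECs 2 of 20 sinusoidal identity genes were called lower (Madcam1 and Vcam1) and 1 higher, Lyve1, a hyaluronan receptor that lymphatic vessels also express. Without adult library 1, adult library 2 or alendronate library 1 these counts were 1 lower and 0 higher, and 0 were higher in marker-filtered or thinned cells. In other cells 4 of 20 were called lower (Ctsl, Gpr182, Sepp1 and Vcam1) and 1 higher, Lyve1, which passed the filter on low counts there through the alendronate libraries alone. The shares over all 12899 genes tested in other cells were 2.74% lower and 3.53% higher. In sinusoidal cells 0 of 19 were called by edgeR or by DESeq2, against 2.3% of 12778 genes called higher and 2.47% lower there by edgeR. An unadjusted p under 0.05 was held by 13 of those 19, at log2 fold changes within the limit. Vcam1, the adhesion molecule that holds haematopoietic cells in the niche, was at 1641 and 1556 against 1205 and 1152 CPM (log2 fold change -0.44, edgeR adjusted p = 2.8e-06). Stab2 was at 1651 and 1628 against 1681 and 1625 CPM in sinusoidal cells, which its gate selects. Of 14 metaphyseal identity genes, 1 was called in all bone ECs, Apln, with 2 more called lower without adult library 2 or alendronate library 1. Apln, the apelin peptide of sprouting vessels, rose from 18.2 and 16.3 to 27.2 and 26.2 CPM, and inside the metaphyseal gate, which it helps to set, from 107 and 119 to 184 and 224 CPM. Its receptor gene Aplnr fell in sinusoidal cells from 301 and 309 to 211 and 213 CPM (log2 fold change -0.52 ± 0.04 SE, adjusted p = 4.17e-06) and in the type R gate from 1034 and 1186 to 620 and 673 CPM (-0.78). Ramp3, a co-receptor for adrenomedullin, fell in aECs from 160 and 151 to 102 and 94.5 CPM and in other cells from 288 and 273 to 203 and 179 CPM. That second fall lost its call without either adult library or alendronate library 2 (-0.45 to -0.58).

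Genes of the circadian clock were called in all 6 sums. The circadian clock runs on a loop in which ARNTL (BMAL1) with CLOCK or NPAS2 drives the Per, Cry and Nr1d genes and the D-box factors Dbp, Tef and Hlf, whose products act back on the loop. In all bone ECs 4 of 16 clock genes were called higher and 9 lower, beside 4.52% and 3.81% of all 14637 genes tested there. Arntl (chr7:113207465-113314126) rose from 8.58 and 7.47 to 22.5 and 25.3 CPM (log2 fold change 1.57 ± 0.10 SE, edgeR adjusted p = 1.01e-05), and Npas2, its low-expressed partner, from 3 and 6 UMIs to 21 and 22. Npas2 passed the filter on low counts through the alendronate libraries alone, so it had to differ, and 3 genes were called higher without it. Per3, a period gene (chr4:151003652-151044665, overlapping Camta1 on the same strand), fell from 140 and 145 to 51.0 and 50.6 CPM (-1.49 ± 0.04 SE, adjusted p = 3.15e-07). Dbp fell from 9.37 and 9.85 to 3.30 and 3.04 CPM, Tef (chr15:81802421-81826863) from 76.0 and 77.5 to 34.5 and 36.4 CPM and Per2 from 9.52 and 7.84 to 3.44 and 3.27 CPM. Cry2, a repressor of the loop, fell from 22.4 and 23.8 to 11.2 and 12.0 CPM, and Nr1d1 (REV-ERB alpha), which represses Arntl, from 26.7 and 27.6 to 14.3 and 16.7 CPM. Groups were wide apart in each of these. Per1 (12.8 and 14.1 against 14.3 and 15.6 CPM) and Cry1 (18.4 and 16.8 against 16.9 and 16.8 CPM) were not called.

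The calls were not limited to 1 class. In sinusoidal cells 3 of 16 clock genes were called higher and 8 lower, in aECs 4 and 8 of 15, and in other cells 3 and 9 of 15, where 3.53% of 12899 genes were called higher and 2.74% lower. Arntl and Bhlhe40 were called higher, and Bhlhe41, Cry2, Dbp, Hlf, Nr1d1, Per3 and Tef lower, in all 3. Over all genes tested, 2.3% were called higher and 2.47% lower in sinusoidal cells, and 2.22% and 1.79% in aECs. Bhlhe41 in sinusoidal cells and Hlf in aECs passed the filter on low counts through the adult libraries alone. Npas2 in sinusoidal cells passed it through the alendronate libraries alone. Without these, 2 clock genes were called higher and 7 lower in sinusoidal cells, and 4 and 7 in aECs. Without adult library 1 the counts in other cells were 2 and 4, and without adult library 2 they were 1 and 2. Erythroid transcripts also fell in other cells, and in marker-filtered other cells the counts were 3 and 9. In the metaphyseal gate, where 3.1% of 9700 genes were called higher and 1.79% lower, 1 of 12 was higher and 3 were lower, with a median log2 fold change of 0.04 and 6 of 12 positive. In the type R gate, where 0.779% of 8340 genes were called higher and 0.863% lower, 1 of 13 was higher and 7 lower. DESeq2 called 2 in all. Of these 8, Arntl passed the filter on low counts through the alendronate libraries alone and Bhlhe41, Cry2 and Dbp through the adult libraries alone, which leaves 0 higher and 4 lower. The falls of Per3 and Tef were larger in this gate. Per3 went there from 254 and 262 to 46.3 and 36.7 CPM (log2 fold change -2.63 ± 0.16 SE), and in one fit over the sinusoidal, arterial, type R gate and metaphyseal gate sums its change in the type R gate was lower than that in sinusoidal cells by -1.19 (adjusted p = 3.01e-05), than that in aECs by -1.08 (adjusted p = 0.000436) and than that in the metaphyseal gate by -1.39 (adjusted p = 3.88e-05). Tef went from 124 and 143 to 20.3 and 25.6 CPM in the type R gate and differed from the same 3 classes by -1.52, -1.29 and -1.48 (adjusted p = 2.12e-05, 0.00058 and 0.000666 in edgeR). Bhlhe41, a repressor paralogous to Bhlhe40, went from 24.8 and 41.0 to 2.11 and 1.38 CPM on 11 and 18 against 3 and 2 UMIs. Elsewhere in the series, in CPM without TMM scaling, Per3 stood at 53.1 and 52.1 in the PTH libraries, 112 and 99.3 in the juvenile and 103 and 102 in the aged libraries, beside 141 and 146 in the adult and 50.5 and 50.6 in the alendronate libraries.

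**Figure D3:**
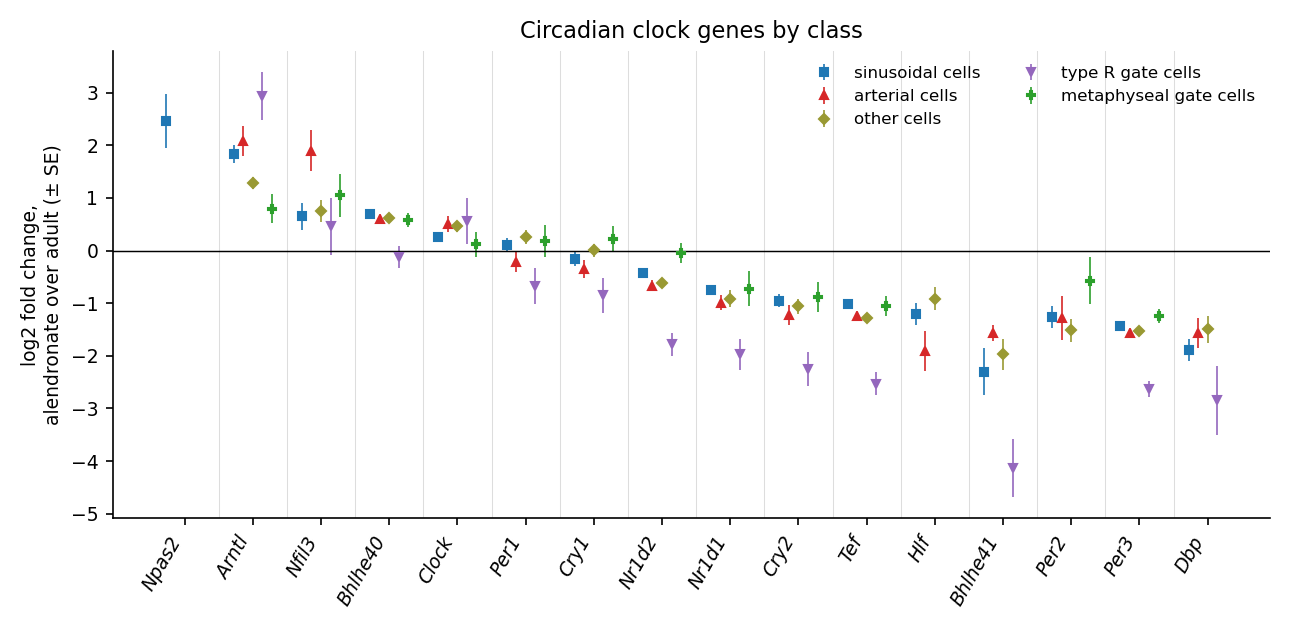
Log2 fold change of alendronate over adult with its standard error (y axis) for the clock genes tested in at least 1 class, ordered by their change in all bone ECs, in sinusoidal, arterial, other, type R gate and metaphyseal gate cells. Arntl lies above 0 and Per3, Tef, Cry2 and Nr1d1 below 0 in every class drawn, and the purple type R gate points are the lowest for Per3 (-2.63) and Tef.

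The promoters of 2 of these clock genes are shown because they hold the letters that clock factors are known to bind. Each sequence is the 250 bases before the RefSeq start on GRCm38.p6, the patch release of mm10, with the motif in capitals (TTATGTAA, a D-box letter run of the Dbp, Tef and Hlf family, for Per3, and the E-box CACGTG for the second start site of Tef, which lies inside that gene). Per3 holds it at positions -205 and -158 from the start, and Tef at -138, on chr4:151044666-151044915 (minus strand) and chr15:81811164-81811413 (plus strand).
Per3: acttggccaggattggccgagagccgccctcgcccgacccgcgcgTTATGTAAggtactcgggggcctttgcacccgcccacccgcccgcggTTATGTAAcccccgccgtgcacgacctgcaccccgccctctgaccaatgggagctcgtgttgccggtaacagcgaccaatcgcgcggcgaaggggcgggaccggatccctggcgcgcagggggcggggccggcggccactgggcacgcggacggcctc
Tef: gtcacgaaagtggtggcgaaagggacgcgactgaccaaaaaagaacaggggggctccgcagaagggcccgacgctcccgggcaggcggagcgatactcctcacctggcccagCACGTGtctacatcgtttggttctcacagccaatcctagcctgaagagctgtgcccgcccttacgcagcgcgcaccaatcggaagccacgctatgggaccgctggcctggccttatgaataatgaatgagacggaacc

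Searched on both strands, CACGTG was in 5 of the 15 clock genes with a promoter in the table (Bhlhe41, Ciart, Cry1, Per1 and Tef) and in 9.54% of the 9766 tested genes with one. It was in 11.4% of 255 genes called lower in all bone ECs and in 7.51% of 426 called higher. TTATGTAA, a search added after the data were seen, was in 0.512% of the tested genes and, of the clock list, in Per3. TGANTCA, the AP-1 letter run that Fos and Jun proteins bind, was in 8.45% of the genes called higher against 5.56% of those tested. A match is a description of letters and not of binding.

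Genes of sterol synthesis and transport, the pathway that holds the drug's target enzyme, stood mostly higher in alendronate bone ECs, and a minority passed the test. Of 21 genes tested in all bone ECs, 18 had a positive log2 fold change, 3 were called higher and 0 lower, and the median was 0.29. Without alendronate library 1 the count was 1. Over all 14637 genes tested there, 4.52% were called higher and 3.81% lower, and the median was -0.006. Stard4, a sterol carrier, rose from 30.2 and 31.8 to 46.2 and 45.0 CPM (0.56 ± 0.05 SE). Cyp51, which demethylates lanosterol, was at 4.86 and 5.56 against 10.0 and 7.30 CPM, and Idi1, the isopentenyl diphosphate isomerase, at 8 and 4 against 21 and 18 UMIs. Idi1 passed the filter on low counts through the alendronate libraries alone, and 2 genes were called without it. The Cyp51 call was lost without either adult library (0.64 and 0.84) or alendronate library 1 (0.49), and the Idi1 call without any 1 library (1.20 to 2.09). Fdps itself stood at 31.0 and 29.6 against 41.5 and 41.9 CPM (0.46), under the fold limit, and was not called. Hmgcs1, which makes HMG-CoA, was at 22.5 and 23.9 against 32.6 and 31.3 CPM (0.46). Insig1, which holds SREBP back, was not called (34.4 and 40.3 against 39.9 and 36.7 CPM).

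By class, 2 of 19 mevalonate and cholesterol genes were called higher in sinusoidal cells (Srebf2 and Stard4), 1 of 19 in other cells (Stard4) and 3 of 16 in the metaphyseal gate (Fdps, Hmgcs1 and Sqle), with 0 lower in each. Of all genes tested in sinusoidal cells, 2.3% were called higher and 2.47% lower. These shares were 3.53% and 2.74% in other cells and 3.1% and 1.79% in the metaphyseal gate. The count in sinusoidal cells was 1 without adult library 2 or alendronate library 1, and that in other cells was 0 without adult library 1, adult library 2 or alendronate library 1, while both were 3 without alendronate library 2. In aECs 0 of 17 were called by edgeR or DESeq2, and 4 had an unadjusted p under 0.05. In the type R gate 0 of 11 were called by edgeR or DESeq2, 2 had an unadjusted p under 0.05, and the median was -0.02. In the metaphyseal gate DESeq2 and the marker-filtered cells gave 1 call each, Fdps, and thinned cells gave 0 (Fdps 1.18). Metaphyseal gate cells held the largest median of the 6 sums, 0.38. Fdps rose in them from 27.4 and 29.8 to 71.5 and 46.5 CPM (log2 fold change 1.07 ± 0.19 SE, edgeR adjusted p = 9.47e-05), and Sqle, squalene epoxidase, from 11 and 12 to 34 and 19 UMIs, a call that was lost without adult library 1 (1.16) or alendronate library 1 (1.02). Hmgcs1 rose there from 27.9 and 35.3 to 52.1 and 44.5 CPM, and lost its call without adult library 1 (0.46) or alendronate library 1 (0.51). Whether the changes of these genes differ between the metaphyseal gate and other classes was not tested.

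**Figure D4:**
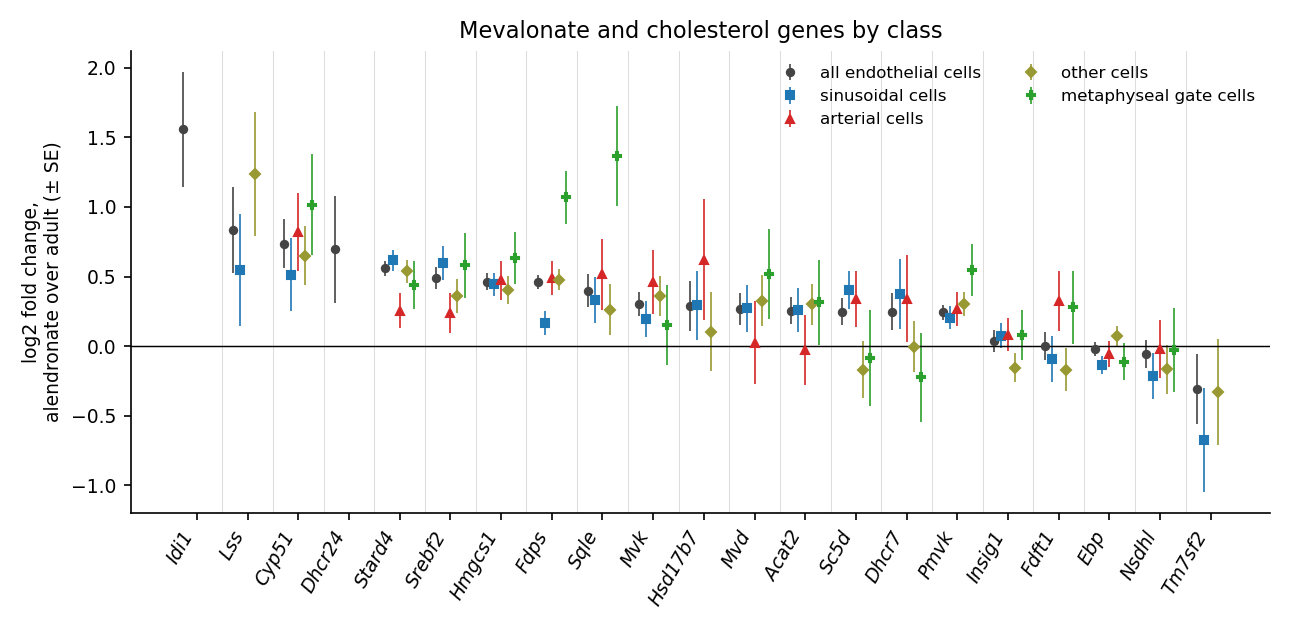
Log2 fold change of alendronate over adult with its standard error (y axis) for mevalonate and cholesterol genes, ordered by their change in all bone ECs, in all bone ECs and in 4 classes. Most points lie above 0, with 18 of 21 positive in all bone ECs.

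The Hmgcs1 promoter is shown as the list's example that holds CACCCCAC, a letter run of sterol regulatory elements, in capitals at position -136 before the start (chr13:119690101-119690350, plus strand). These letters were in 2 of 17 list genes with a promoter in the table (Acat2 and Hmgcs1) and in 3.31% of the tested genes.
Hmgcs1: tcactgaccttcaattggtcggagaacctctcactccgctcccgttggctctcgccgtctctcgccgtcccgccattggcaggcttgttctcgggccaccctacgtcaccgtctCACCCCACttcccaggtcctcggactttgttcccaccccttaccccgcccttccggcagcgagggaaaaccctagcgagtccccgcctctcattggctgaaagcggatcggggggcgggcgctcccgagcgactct

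Genes of prenyl transfer and of small GTPases, which use the isoprenoids of this pathway, were called in 1 case. Rhob, a GTPase of endosomes that is also an early response gene, rose in the type R gate from 250 and 214 to 467 and 511 CPM (log2 fold change 1.07 ± 0.11 SE, edgeR adjusted p = 1.5e-05). In the other 5 sums 0 of 22 genes were called by edgeR or DESeq2, 2 to 10 had an unadjusted p under 0.05, and the medians were 0.01 to 0.17.

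Of 11 flow response genes tested in the type R gate, 3 were called higher (Klf2, Klf4 and Cyr61) and 0 lower, with a median of 0.15. Over all 8340 genes tested in this gate, 0.779% were called higher and 0.863% lower. Klf2, the transcription factor that laminar flow induces (chr8:72319033-72321656), was at 1777 and 1688 CPM in adult and at 4245 and 4271 CPM in alendronate type R gate cells (log2 fold change 1.30 ± 0.05 SE, edgeR adjusted p = 4.32e-12). In sinusoidal cells it was level at 584 and 555 against 569 and 577 CPM, and in aECs it was at 3372 and 3291 against 3954 and 3889 CPM (0.24). The change in the type R gate exceeded that in sinusoidal cells by 1.29, that in aECs by 1.06 and that in the metaphyseal gate by 1.03 (adjusted p = 5.49e-18, 1.21e-15 and 3.19e-15). Klf4, its paralogue, rose from 234 and 237 to 585 and 612 CPM in the gate and likewise exceeded the other 3 classes by 1.16, 0.87 and 1.13 (adjusted p = 8.54e-08, 2.1e-05 and 1.47e-06).

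Of 20 immediate early genes, 9 were called higher in the type R gate and 1 lower (5 in all by DESeq2, and 6 in thinned cells), and in all bone ECs 6 of 21 were higher and 0 lower. The shares over all genes tested were 0.779% higher and 0.863% lower in the gate, and 4.52% and 3.81% in all bone ECs. Nr4a1, an orphan nuclear receptor, rose in the gate from 9 and 9 to 157 and 137 UMIs, or from 20.3 and 20.5 to 110 and 94.8 CPM (log2 fold change 2.32 ± 0.27 SE, edgeR adjusted p = 4.48e-05). Atf3, a stress-induced repressor, had 0 and 0 UMIs in the adult gate cells and 98 and 59 in the alendronate gate cells, which is at least 15.9-fold higher when set against a floor of 3 counts over the group. It passed the filter on low counts there through the alendronate libraries alone, and 8 members were called higher without it. In all bone ECs Atf3 rose from 5.55 and 6.09 to 19.4 and 17.5 CPM. Jun rose in the gate from 599 and 592 to 1063 and 1053 CPM, and Fos from 290 and 187 to 450 and 421 CPM. Ier3 was the member called lower, at 153 and 221 against 128 and 119 CPM, a difference that turned to 0.02 on the log2 scale in marker-filtered cells. Rnd1, a small G protein that lacks GTPase activity, rose from 31.5 and 38.7 to 162 and 143 CPM, and Cdkn1a, the p21 cell cycle inhibitor, from 108 and 86.5 to 289 and 259 CPM. Lpl, lipoprotein lipase, fell in the gate from 536 and 596 to 325 and 379 CPM, and Herpud1, of the unfolded protein response, from 221 and 234 to 127 and 131 CPM.

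Heat shock genes changed in few members but in every class. Of 19, 3 were called higher in all bone ECs, Hspa1a, Hspa1b and Hsph1, beside 4.52% of all 14637 genes tested there. Hspa1a, the inducible HSP70 (chr17:34969190-34972156), rose from 44.7 and 45.3 to 101 and 106 CPM in all bone ECs (log2 fold change 1.20 ± 0.05 SE, edgeR adjusted p = 1.07e-06). It rose in the type R gate from 22.5 and 20.5 to 180 and 151 CPM and in the metaphyseal gate from 39.3 and 23.1 to 119 and 105 CPM. Hspa1a and Hspa1b are near-identical copies whose reads the counting could divide, so the split between them is uncertain.

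**Figure D5:**
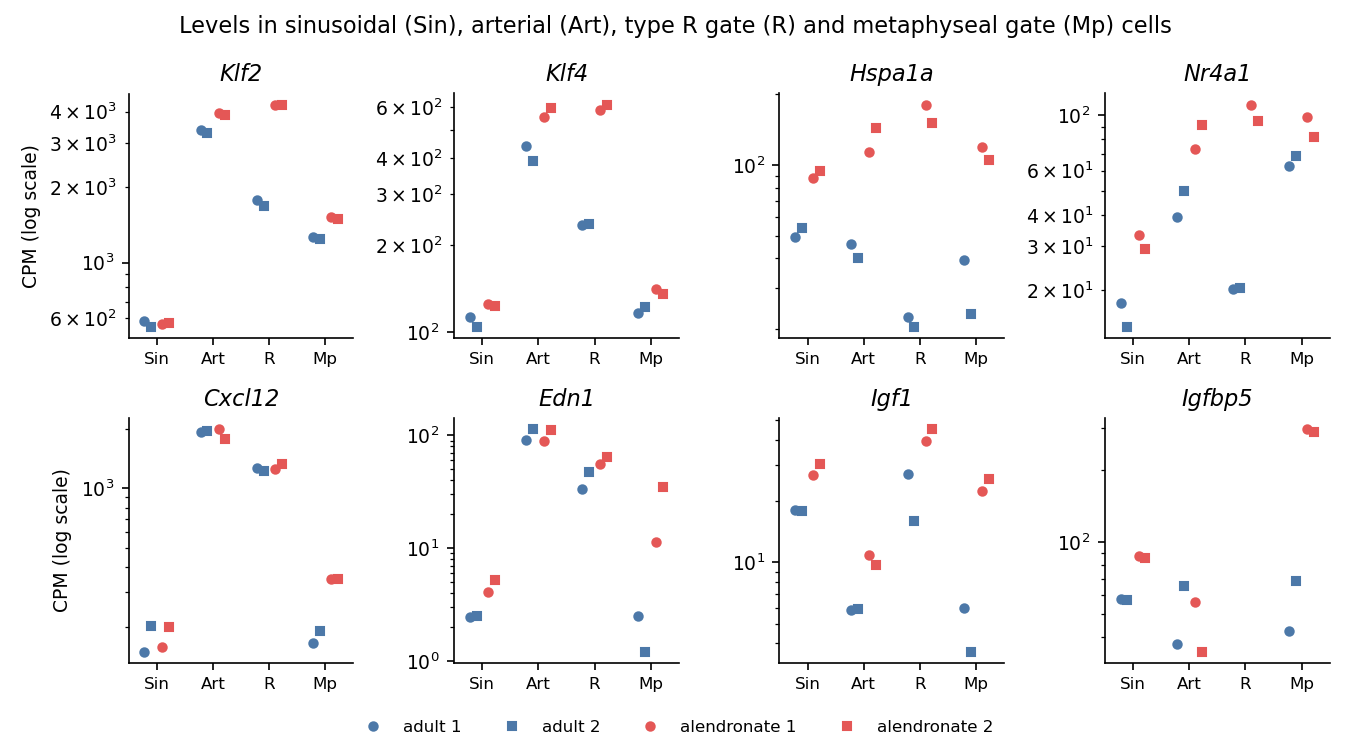
CPM of 8 genes on a log scale (y axis) in sinusoidal (Sin), arterial (Art), type R gate (R) and metaphyseal gate (Mp) cells of each adult (blue) and alendronate (red) library, where a gene was tested. Klf2 and Klf4 part most in the type R gate and Igfbp5 and Cxcl12 in the metaphyseal gate, where Igfbp5 goes from 42.3 and 68.7 to 298 and 290 CPM.

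Among factors that endothelium secretes onto bone and marrow cells, 8 of 26 were called higher and 0 lower in all bone ECs, with a median of 0.35. There 4.52% of all 14637 genes tested were called higher and 3.81% lower. Mesenchymal cells of bone are known to express Cxcl12 and Kitl, and their markers summed to 95.2 and 108 CPM in adult and to 126 and 173 CPM in alendronate bone ECs, and 5 of 11 were called higher (Alpl, Col1a1, Dcn, Lepr and Postn) and 2 lower (Adipoq and Bglap). Bglap passed the filter on low counts through the adult libraries alone, which leaves 1 lower. In marker-filtered cells, where 1 of the mesenchymal markers outside the filter was still called higher and 3 lower, 9 of the factors were called higher, with log2 fold changes of 0.79 for Cxcl12 and 0.69 for Kitl. Ntf3, neurotrophin-3 (chr6:126101412-126166910), had the largest change and rose from 2.33 and 2.97 to 10.6 and 10.1 CPM (log2 fold change 1.97 ± 0.16 SE, edgeR adjusted p = 3.98e-05). It stood at 69.8 and 61.4 against 89.1 and 85.8 CPM within the type R gate, where it was not called. Dkk2, a Wnt antagonist, rose from 3.67 and 5.24 to 13.6 and 13.0 CPM in all bone ECs and from 27.4 and 37.6 to 59.8 and 59.9 CPM in aECs. Cxcl12, the chemokine that retains haematopoietic stem cells, rose from 419 and 433 to 671 and 629 CPM in all bone ECs but was level in aECs (1924 and 1941 against 1983 and 1764 CPM). Kitl, stem cell factor, rose from 69.0 and 67.9 to 113 and 111 CPM.

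In the metaphyseal gate 7 of 19 of these factors were called higher and 1 lower, beside 3.1% and 1.79% of all 9700 genes tested. DESeq2 called 4 of the factors in all, and thinned metaphyseal gate cells gave 3 higher and 1 lower. Igfbp5, an IGF-binding protein (chr1:72857932-72874884), rose in them from 42.3 and 68.7 to 298 and 290 CPM (log2 fold change 2.43 ± 0.12 SE, edgeR adjusted p = 1.39e-18), while in aECs it was at 37.4 and 65.2 against 56.1 and 34.8 CPM and not called. In the fit over 3 classes its change in other cells, of which the gate is a part, exceeded that in sinusoidal cells by 0.93 (adjusted p = 0.000137) and the change in aECs was lower than that in other cells by -1.67 (adjusted p = 3.33e-05). Its smaller rise in sinusoidal cells (58.0 and 57.5 against 87.7 and 85.7 CPM) turned to -0.11 when cells were thinned to equal depth. Igf1 rose in the metaphyseal gate from 12 and 6 to 39 and 38 UMIs, and Edn1, endothelin-1, from 5 and 2 to 20 and 52 UMIs. Edn1 passed the filter on low counts through the alendronate libraries alone, and 6 factors were called higher without it. Cxcl12 rose in it from 167 and 190 to 350 and 349 CPM, and Igfbp3 from 461 and 515 to 679 and 816 CPM. Bmp2 was at 6.47 and 10.3 against 16.02 and 18.9 CPM there, a call lost without adult library 1 (0.74), alendronate library 1 (1.20) or alendronate library 2 (0.96). Tnfsf10 (TRAIL) fell from 126 and 120 to 74.9 and 81.6 CPM. In aECs Tgfb2 fell from 115 and 116 to 79.5 and 75.4 CPM, and Pgf stood at 15.4 and 29.7 against 10.1 and 10.4 CPM. The Pgf call was lost without adult library 2 (-0.58), and its sign turned among marker-filtered cells (0.78).

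Other genes of the metaphyseal gate moved by more than 1 on the log2 scale. Slc16a3, the lactate exporter MCT4, rose from 18 and 14 to 59 and 60 UMIs, and Adm, adrenomedullin, from 18 and 12 to 53 and 55 UMIs. Ch25h, which makes 25-hydroxycholesterol, a suppressor of SREBP processing, rose from 8 and 11 to 84 and 48 UMIs (log2 fold change 2.95 ± 0.30 SE, edgeR adjusted p = 1.01e-09). Angpt2, the antagonist of TIE2 in sprouting vessels, rose from 34 and 15 to 56 and 62 UMIs. Tbx3, a T-box factor, fell from 39.3 and 40.1 to 13.7 and 20.9 CPM, and Spry2, a feedback inhibitor of growth factor signalling, from 46.3 and 67.5 to 26.3 and 26.3 CPM. Of 21 glycolysis and hypoxia genes tested in the gate 6 were called higher and 0 lower, with a median of 0.20, while DESeq2 and thinned cells gave 2 each. Of the 6, Ankrd37 passed the filter on low counts through the alendronate libraries alone. The transcript counts behind these changes were small.

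Of 21 genes of basement membrane and matrix, 7 were called higher and 0 lower in all bone ECs. The shares over all 14637 genes tested there were 4.52% higher and 3.81% lower. Sparcl1 (hevin) rose from 218 and 210 to 473 and 446 CPM (log2 fold change 1.102 ± 0.04 SE, edgeR adjusted p = 8.04e-07), and in aECs from 513 and 520 to 770 and 775 CPM. Fn1, fibronectin, rose from 38.4 and 32.3 to 73.4 and 86.0 CPM, and Col15a1 and Col18a1, which encode basement membrane collagens, had log2 fold changes of 0.70 and 0.67. The count in all bone ECs was 7 in marker-filtered cells too. In aECs 5 of 21 were called higher (Col5a2, Eln, Fn1, Mgp and Sparcl1) and 0 lower, and 3 in marker-filtered aECs. Mesenchymal and bone markers, which include matrix genes, summed to 170 and 263 against 286 and 246 CPM in aECs. Of 8 tested there, 5 were called higher (Col1a1, Col1a2, Dcn, Lepr and Postn, of which Col1a1 and Postn passed the filter on low counts through the alendronate libraries alone) and 2 lower (Adipoq and Ibsp), against 1 call by DESeq2 and 0 in marker-filtered or thinned aECs. Their part in the matrix values was not tested otherwise. Bgn, biglycan, fell in other cells from 402 and 389 to 262 and 266 CPM and in the metaphyseal gate from 332 and 326 to 221 and 208 CPM.

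Ifi27l2a (chr12:103442167-103443680), an interferon-induced mitochondrial protein gene, was called higher in all 6 sums and rose from 23.9 and 22.2 to 91.1 and 98.7 CPM in all bone ECs (log2 fold change 2.04 ± 0.06 SE, edgeR adjusted p = 3.15e-07). In the metaphyseal gate its call was lost without alendronate library 2 (0.89). Of 35 interferon genes tested in all bone ECs 2 were called higher and 1 lower, with a median of 0.10. These counts stand beside 4.52% and 3.81% of all 14637 genes tested. In the type R gate 4 of 32 were called higher (7 without adult library 2, 9 without alendronate library 2, 8 in marker-filtered cells and 2 in thinned cells), among them Irf7, from 101 and 127 to 197 and 219 CPM, and Isg15, from 187 and 275 to 412 and 340 CPM. The latter call was lost without adult library 1 (0.44). Il6 rose in all bone ECs from 24 and 28 to 95 and 94 UMIs. Of 19 genes of NF-kB and leukocyte recruitment 5 were called higher and 1, Vcam1, lower (1066 and 1040 against 662 and 635 CPM in all bone ECs).

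Of the 10635 genes tested in sinusoidal, arterial and other cells, 64 were called higher and 45 lower in all 3, and 10 in opposite directions in 2 of the 3. Names that begin with Gm or end in -ps, mostly gene models and pseudogenes, made up 14 of the 64 and 12 of the 45. Cyp26b1, which degrades retinoic acid (chr6:84571414-84593908), was among the higher ones, with 29 and 25 UMIs in adult and 187 and 188 in alendronate bone ECs. Ret, the GDNF receptor tyrosine kinase, rose from 41 and 44 to 177 and 188 UMIs, and Pdlim4, a LIM-domain actin regulator, from 12.0 and 12.0 to 39.5 and 43.9 CPM. Low counts leave some class values uncertain, as the Ret call in aECs was lost without adult library 1 (0.96) or alendronate library 2 (1.43). Among those lower in all 3, Ftl1, the ferritin light chain (chr7:45457944-45459884, with Gm22133 and Gm10252 overlapping it), fell from 1167 and 1268 to 581 and 703 CPM in all bone ECs (log2 fold change -0.92 ± 0.08 SE, edgeR adjusted p = 5.12e-05). Without TMM scaling it was at 1170 and 1274 CPM in the adult libraries, 749 and 683 in the juvenile, 280 and 261 in the aged and 635 and 583 in the PTH libraries, so that the adult libraries were the highest of the 10. Tspan4, a tetraspanin, fell from 74.6 and 87.7 to 27.1 and 37.0 CPM.

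Lipid genes did not move as a group. Of 15 genes of fatty acid handling 1 was called higher and 2 lower in all bone ECs, with a median of -0.02. The shares over all 14637 genes tested were 4.52% higher and 3.81% lower. Fabp5, a fatty acid binding protein, rose from 117 and 108 to 214 and 212 CPM (log2 fold change 0.92 ± 0.05 SE, edgeR adjusted p = 4.15e-06). Pparg, the nuclear receptor for fatty acids, fell from 241 and 250 to 171 and 167 CPM. Cyp4b1, a fatty acid hydroxylase of the cytochrome P450 family, fell in all bone ECs from 723 and 740 to 350 and 343 CPM and in sinusoidal cells from 1032 and 1040 to 579 and 562 CPM, while in the type R gate it was at 221 and 232 against 189 and 213 CPM and not called.

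In all bone ECs 4.52% of all 14637 genes tested were called higher and 3.81% lower. Of 20 cell cycle genes 2 were called lower in all bone ECs, Nusap1 and Stmn1, a count that went to 0 without adult library 2 or alendronate library 1, to 1 without adult library 1 and to 7 without alendronate library 2. Mki67, the proliferation marker, was at 12.9 and 12.7 against 10.5 and 14.5 CPM. Of 15 genes of MHC class I and peptide loading 0 were called in edgeR or DESeq2 in the all, sinusoidal, arterial and other sums (medians -0.15 to 0.06, with 5 to 10 genes at an unadjusted p under 0.05), 2 were higher in the type R gate and 2 lower in the metaphyseal gate. The type R gate count was 1 without either adult library and 5 in marker-filtered cells. That of the metaphyseal gate was 1 without either alendronate library. Of 7 MHC class II genes 0 were called in all bone ECs by either tool, and 1 had an unadjusted p under 0.05. In sinusoidal cells H2-Ab1 was called lower (25.7 and 23.02 against 13.3 and 14.8 CPM) and the median of 6 genes was -0.51, while in the type R gate the median of 4 genes was 1.28, with 0 called by either tool and 3 at an unadjusted p under 0.05. Among 15 Notch genes 4 were called higher and 3 lower in all bone ECs (Heyl, 1 of the 3, passed the filter on low counts through the adult libraries alone), where leaving out 1 library gave 2 or 3 higher and 0 to 2 lower, with 0 lower without adult library 2. There were 3 higher and 0 lower among 16 genes of VEGF, angiopoietin and apelin signalling, 1 and 0 among 18 scavenging and lysosome genes, 1 and 1 among 15 glucocorticoid targets, and 1 and 1 among 15 genes of iron, haem and oxidative stress, and leaving out 1 library lost or added 1 or 2 of these calls. Of 13 flow response genes 7 were called higher in all bone ECs and 0 lower, with a median of 0.68.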

How the data were processed

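Sorted bone endothelial cells were measured by 10x 3' single-cell RNA-seq. The deposited values are UMI counts per gene and barcode, which the authors made, per the submitters' processing notes, with UMI-tools 1.1.2, STAR 2.7.10a, mm10 and featureCounts 2.0.3. The annotation release and the strand setting are not given in the sources used here. No doublet caller was run, and no other columns of per-sample values were left unused (0).

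Groups were taken from the sample labels, and the gates given with the results were applied to each cell. UMIs were summed per library and class and tested with edgeR 4.0.16 in R 4.3.3 (filterByExpr, TMM factors, glmQLFit and glmQLFTest) on the 2 alendronate and 2 adult libraries, with 2 residual degrees of freedom. The filter needs about 10 UMIs at the median total of the sum in 2 libraries (0.482 CPM in all bone ECs to 10.4 CPM in the type R gate), and a gene under it in both libraries of 1 group had passed through the other group alone. P-values were adjusted by the Benjamini-Hochberg method over all genes tested, and a call needed an adjusted p under 0.05 and an absolute log2 fold change of at least 0.5. Shares were compared by a two-sided exact permutation test, with exact Clopper-Pearson 95% intervals that cover counting error only. Alternatives were DESeq2 1.42.0, other factors, filters, cells, gates and fits, thinning to 2000 UMIs a cell, and leaving out each library. The fits over 3 and over 4 classes, with the library as a term, the D-box search and the levels in the other libraries were added after the data were seen. Python 3.11.15, NumPy 2.4.6, pandas 2.3.3 and SciPy 1.17.1 did the rest. The fits were tested on simulated data.

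The members, the gates and the 32 gene lists were chosen with earlier results of these data known, and some genes are not reported here. Genes were named from the lists and as the 10 called genes with the largest change in each direction and sum that had a mean of at least 20 CPM and no overlap between groups, without gate genes, gene models, mitochondrial and ribosomal protein genes. The 10 genes of each direction with the largest smallest change among those called alike in sinusoidal, arterial and other cells were named as well, and Gsn, Hp and Prtn3 were named after their values were seen, since they were called in opposite directions in 2 classes. Positions are those of GENCODE M21, and promoters are RefSeq's on GRCm38.p6.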

Additional observations from a re-analysis of the deposited data

Results flagged for a closer look

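In 9 cases a gene was called in opposite directions in 2 classes and the difference of its log2 fold changes passed the test in one edgeR fit over sinusoidal, arterial and other cells. Haemoglobin genes stood higher in alendronate aECs and lower in alendronate other cells. The difference, aECs minus other cells, was 4.32 for Hba-a1, 6.64 for Hba-a2 and 4.47 for Hbb-bs. Hba-a1 was at 44.5 and 63.3 against 83.9 and 419 CPM in aECs, where alendronate library 2 was far above the other 3, and at 1715 and 1773 against 366 and 382 CPM in other cells.

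Several of the remaining cases turned on 1 library. Hp, haptoglobin, differed by -4.53 and Cxcl10, an interferon-induced chemokine, by -4.17 between aECs and other cells. In aECs adult library 2 alone held the high values, with 174 CPM of Hp against 4.83 to 6.40 and 52.4 CPM of Cxcl10 against 1.23 to 3.14 in the other 3 libraries. Immunoglobulin genes were alike, since the difference of other minus sinusoidal cells was 9.07 for Igj and 6.65 for Igkc. Igkc was at 18.6 and 724 against 22.97 and 20.4 CPM in sinusoidal cells and at 47.9 and 115 against 181 and 1990 CPM in other cells.

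Gsn, gelsolin, had a difference of 1.93 between other and sinusoidal cells, with 31.0 and 38.0 against 69.5 and 98.5 CPM in other cells and 8.41 and 12.0 against 7.40 and 5.45 CPM in sinusoidal cells. Prtn3, a protease of neutrophil precursors, had one of 1.90 between aECs and sinusoidal cells on 19 and 7 against 48 and 75 UMIs in aECs. With 2 libraries a group, no test for a single library standing apart was made.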

How the results depend on the processing

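The calls numbered 1220 in all bone ECs, 610 in sinusoidal, 435 in arterial, 808 in other, 137 in type R gate and 475 in metaphyseal gate cells, and in that order DESeq2 gave 701, 270, 132, 442, 49 and 123. An adjusted p alone gave 3663, 2219, 998 and 1643 in the first 4 and 876 in the metaphyseal gate, and a log2 limit of 1 gave 523, 199, 159, 349, 68 and 187. A mean of at least 20 CPM gave 287, 173, 259 and 372 in the first 4, on fewer genes tested. No filter gave 278 in sinusoidal, 348 in other and 4 in type R gate cells. Thinned cells gave 346 in sinusoidal, 165 in arterial, 55 in type R gate and 137 in metaphyseal gate cells, and cells without UMIs of the 25 filter markers 247 in arterial and 262 in metaphyseal gate cells. Leaving out 1 library gave 529 to 1158, 408 to 625, 321 to 480, 214 to 826, 133 to 189 and 356 to 486. Without adult library 1 or 2 the counts were 608 and 529 in all bone ECs and 268 and 214 in other cells. Apart from what these constructions show, the cause was not tested.

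With the replicate number as a block the counts were 1424, 731, 467, 946, 161 and 515. The numbers only name libraries, and deviations of same-numbered libraries correlated at 0.00263 to 0.133.

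The share differences, in percentage points, kept their sign except for other cells. In marker-filtered cells, thinned, with the gate raised by 2 UMIs and with it lowered by 1, they were -9.18, -6.08, -4.61 and -12.5 for sinusoidal cells (-9.70 as reported), 9.39, 7.24, 6.75 and 9.75 for aECs (8.81) and 5.87, 4.85, 4.39 and 6.28 for the type R gate (5.95). In cells with at least 1000 genes and under 10% mitochondrial UMIs the arterial difference was 9.59. The metaphyseal gate went from -2.003 to -1.08 with its gate raised. That of other cells, 0.887, was -0.10 in those cells of at least 1000 genes, -0.21 in marker-filtered cells, -1.16 thinned, -2.13 with gates raised and 2.80 with gates lowered. Leaving out 1 library gave -10.1 to -9.35, 8.28 to 9.35, -0.0046 (without adult library 1) to 1.78, 5.93 to 5.97 and -2.55 to -1.46 for sinusoidal, arterial, other, type R gate and metaphyseal gate cells.

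Of 9446 values of 665 named gene results under the alternatives, 8275 kept direction and side of the threshold, 1077 lost the call and 15 changed sign. In marker-filtered cells, log2 fold changes turned to -0.35 (Dcn, all bone ECs), -0.73 (Dcn, other), 0.43 (Mpo, sinusoidal), 0.78 (Pgf, aECs) and 0.023 (Ier3, type R gate). Thinned, they turned to 0.35 (Coro1a), -0.11 (Igfbp5) and 0.45 (Mpo) in sinusoidal cells, 0.56 (Adipoq, aECs), -0.41 (Cxcl10, other), -0.0057 (Clu, type R gate) and 0.51 (Hba-a1, metaphyseal gate). Leaving out 1 library gave -4.55 to 0.077 for Cxcl10 and -6.22 to 1.71 for Ibsp in aECs, where the positive values came without adult library 2, and -7.13 to 0.74 for Hbb-bt in the type R gate, positive without adult library 1. The type R gate held 205 to 560 cells a library and the metaphyseal gate 295 to 437, and with 8340 and 9700 they had the fewest genes tested, which limits what could be called there.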

Other observations

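The summed markers of megakaryocytes and platelets were higher in the alendronate libraries in all bone ECs and in other cells. The 6 megakaryocyte markers summed to 113 and 114 CPM in adult and to 249 and 186 CPM in alendronate bone ECs, and in other cells to 151 and 171 against 462 and 315 CPM. Pf4, platelet factor 4, rose in all bone ECs from 85.5 and 66.6 to 205 and 143 CPM (log2 fold change 1.20 ± 0.16 SE, edgeR adjusted p = 0.000703). Pf4 made up most of the sums in all bone ECs and was the 1 marker of the 6 called there. Its call was lost without adult library 2. In the metaphyseal gate the marker sums overlapped, at 72.5 and 57.5 against 66.8 and 70.6 CPM. S100a9, a neutrophil gene, stood at 3.72 and 8.26 CPM in the adult libraries and at 120 and 11.6 CPM in the alendronate libraries, so that alendronate library 1 alone held the high level. Lymphatic markers summed to 109 and 111 against 114 and 114 CPM in all bone ECs, where Ccl21a and Lyve1 of the 6 were called higher. Within classes the sums were uneven, at 101 and 102 against 65.5 and 17.2 CPM in aECs, where Ccl21a was called lower, and at 60.4 and 84.1 against 48.1 and 138 CPM in other cells, where alendronate library 2 was high. Myofibre markers summed to 5.87 and 6.33 against 8.30 and 8.597 CPM.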
